A study of Mus musculus with 9 samples.

Results

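The last stage of beige adipocyte differentiation, from day 4 to day 8, was examined by comparing the 3 RNA-seq libraries of day 8 with the 3 of day 4 across all genes. These are 6 of the 9 libraries of the series and were chosen by their labelled day alone. The other 3, from non-induced cells (day 0), entered the filter on low counts, the scaling, the estimate of spread and the principal components. A few of their levels are given for reference. The cells were adipocyte precursors isolated from the inguinal white fat of mice, which lies under the skin, and the labels used here give no strain, sex, age or pooling. Day 4 and day 8 cells shared the same treatment. They spent 2 days in an induction medium with dexamethasone (2 μg/mL, a synthetic glucocorticoid), 3-isobutyl-1-methylxanthine (0.5 mmol/L, a phosphodiesterase inhibitor that raises cAMP), indomethacin (125 μmol/L), insulin (5 μg/mL), 3,3′,5-triiodo-L-thyronine (1 μmol/L, the thyroid hormone T3) and rosiglitazone (0.5 μmol/L, an agonist of the adipogenic receptor PPARγ). From then on the medium lacked dexamethasone, 3-isobutyl-1-methylxanthine and indomethacin and was renewed every 2 days. Day 4 cells were therefore 2 days, and day 8 cells 6 days, past the removal of these agents.

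Adipocyte precursors first acquire the general fat cell program, with lipid droplets, lipid-handling enzymes and adipokines, under the transcription factors PPARγ and C/EBPα. Beige cells in addition build a thermogenic program: mitochondria become abundant, and the uncoupling protein UCP1 lets protons re-enter the mitochondrial matrix without making ATP, so that fuel is burned for heat. Such cells carry a high load of lipid synthesis, protein folding and oxidative metabolism, which in fat cells is known to engage stress pathways of the endoplasmic reticulum and the mitochondria.

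Library totals lay between 27222642 and 27692241 counts at day 4 and between 30118228 and 31006682 at day 8. Levels are given as CPM, that is counts scaled to a TMM-adjusted library size of 1e+06, in the order of replicates 1, 2 and 3. CPM is not divided by gene length, so levels are compared between libraries for a gene and not between genes. A floor of 3 counts in a library corresponded to 0.104 to 0.125 CPM in these 6 libraries, a limit that covers counting error only. Whether replicates were separate cultures or animals is not stated in the labels; the p-values then reflect only the spread among these libraries, which may be technical. In bulk RNA, fewer cells of a type and less RNA per cell cannot be told apart. The general fat cell markers were high in all 6 libraries: Fabp4, a fatty acid carrier, stood at 23770, 12180 and 19900 CPM at day 4 and 21050, 22480 and 20010 CPM at day 8. On the second principal component (12.5% of the variance over all 9 libraries) day 4 libraries scored -39.4, -59.8 and -56.2 and day 8 libraries 50.9, 49.9 and 33.1. On the first, with 75.7%, day 4 replicate 2 scored 13.7 against 69.5 and 84.6 for the other day 4 libraries and 72.7 to 92.0 at day 8, and lay between them and day 0. List counts are therefore given with and without this library. Of 209 called genes chosen by the naming rule, 191 were also called in the same direction without it, and the text says for each gene it describes where the call was lost or the fold change moved by over 1.5 times. The share of counts from the mitochondrial genome was 5.65%, 3.17% and 4.38% at day 4 and 8.46%, 4.94% and 5.19% at day 8, so the days overlapped.

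The table lists 55359 genes, and 14649 passed the filter on low counts and were tested with edgeR's quasi-likelihood test. Between day 4 and day 8, 3285 genes (22.4%) changed at an adjusted p under 0.05, 1709 (11.7%) higher and 1576 (10.8%) lower at day 8. A change of at least 2-fold was seen for 853 genes (5.82%) that rose and 767 (5.24%) that fell. All 3 day 8 libraries lay above all 3 day 4 libraries for 2921 genes (19.9%) and below them for 2506 (17.1%), whether or not the test was passed. The tested genes together had a median log2 fold change of 0.00. Without day 4 replicate 2, 15150 genes could be tested and 3391 (22.4%) changed, 1644 (10.9%) higher and 1747 (11.5%) lower. Of these, 2632 were among the 3285, all in the same direction. Other libraries moved the count more: 1894 genes changed without day 4 replicate 3, 2107 without day 8 replicate 1 and 2012 without day 8 replicate 2. The plot of fold change against expression shows that the largest changes lay at low and middle levels and that highly expressed genes changed less.

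**Figure D1:**
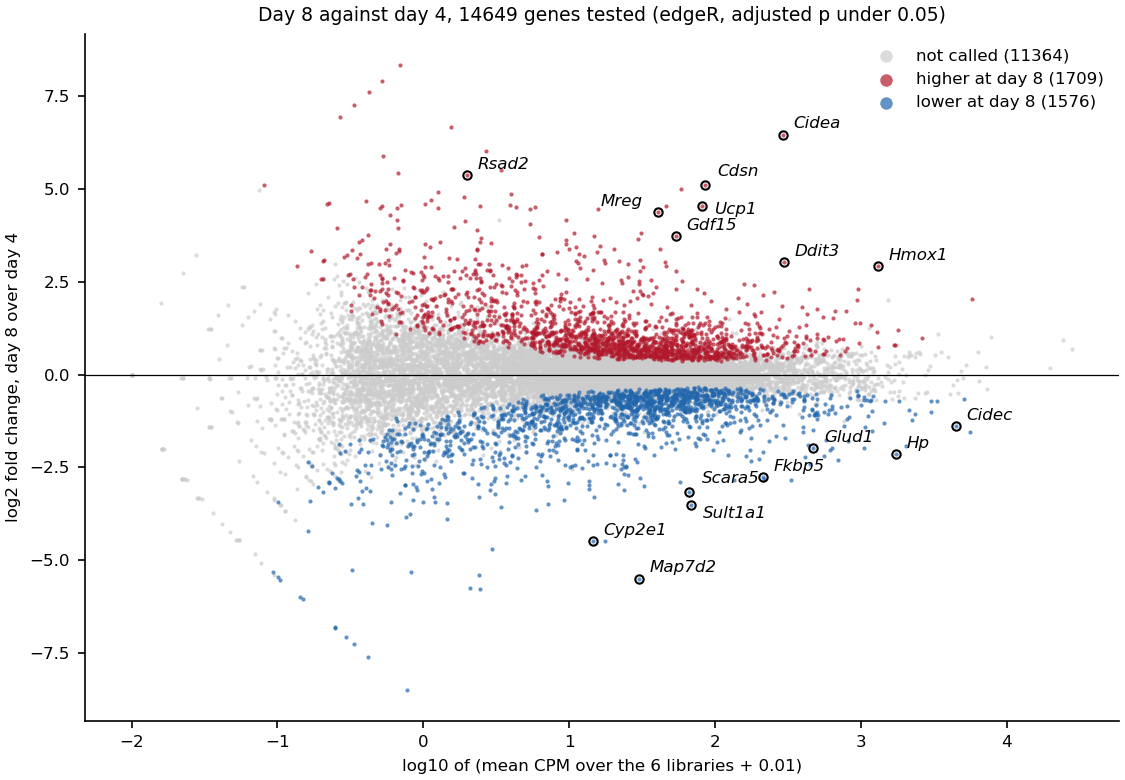
Log2 fold change of day 8 over day 4 against the mean level over the 6 libraries, log10 of (CPM + 0.01), for the 14649 tested genes. Red points rose (1709), blue points fell (1576) and grey points did not pass edgeR's test; named genes are circled, with Cidea and Ucp1 among the rises and Map7d2 and Fkbp5 among the falls.

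The largest rise among genes at 5 CPM or more was that of a thermogenic gene. Cidea, which coats lipid droplets in brown and beige adipocytes, was at 14.4, 2.00 and 3.39 CPM at day 4 and 584, 843 and 299 CPM at day 8. All day 8 libraries lay far above all day 4 libraries, and day 4 replicate 1 was the highest of its day (log2 fold change 6.45, SE 0.74, adjusted p = 0.000504). When day 4 replicate 2 was left out, its log2 fold change was 5.96, and it came to 7.74 without day 4 replicate 1. Ucp1, the uncoupling protein itself, was at 12.0, 3.08 and 5.08 CPM at day 4 and 170.1, 210.1 and 88.0 CPM at day 8, again with no overlap between the days (log2 fold change 4.54, SE 0.53, adjusted p = 0.00128). Its log2 fold change without day 4 replicate 2 was 4.14, and it came to 5.26 without day 4 replicate 1. Day 8 replicate 3 was the lowest day 8 library for both genes.

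Of 26 tested members of a list of 30 thermogenic and beige genes, 10 rose and 1 fell (Zfp516, a transcriptional regulator of Ucp1, -0.83), with a median log2 fold change of 0.646. These shares can be read against 11.7% and 10.8% of all genes tested. With day 4 replicate 2 left out, there were 9 higher and 1 lower, and the median was 0.312. Zfp516 was lost without replicate 3 of day 4 or replicate 2 of day 8 (adjusted p between 0.0607 and 0.0625), and without day 8 replicate 1 there were 2 lower members. Among the rises were Tnfrsf9, a surface receptor used as a beige marker (0.196 ± 0.174 CPM at day 4 against 4.64 ± 1.11 CPM at day 8, mean ± SD, n = 3, log2 fold change 4.54, SE 0.78, adjusted p = 0.00372), and Otop1, a proton channel (log2 fold change 3.25, SE 0.43, adjusted p = 0.00205). The cytochrome oxidase isoforms Cox8b and Cox7a1, which brown fat shares with muscle, had log2 fold changes of 2.29 and 1.83. The Cox7a1 call was lost without replicate 3 of day 4 or replicates 1 or 2 of day 8 (adjusted p between 0.051 and 0.0818). Ppargc1a, the coactivator PGC-1α that drives mitochondrial biogenesis, was at 6.84, 3.01 and 6.06 CPM at day 4 and 17.0, 8.85 and 9.78 CPM at day 8 (log2 fold change 1.17, SE 0.35, adjusted p = 0.0357). Its 3 day 8 libraries were above the day 4 libraries, but the call was lost without any of the 3 day 0 libraries, replicates 2 or 3 of day 4 or replicate 1 of day 8 (adjusted p between 0.0525 and 0.14).

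Several regulators and other genes tied to beige fat were not among the calls. Prdm16, which sets brown and beige cell fate, was at 6.63, 6.28 and 7.09 CPM at day 4 and 6.11, 7.61 and 7.04 CPM at day 8 (log2 fold change 0.05, SE 0.21, adjusted p = 0.875), with overlapping days. Its log2 fold change was -0.041 without day 4 replicate 2. Dio2, the enzyme that makes active thyroid hormone inside the cell, had log2 fold change 0.70, SE 0.71, adjusted p = 0.5. It was near the floor, at 0.709, 0.0726 and 0.197 CPM at day 4 and 0.798, 0.490 and 0.280 CPM at day 8, so its missing call says little. Elovl3, a fatty acid elongase of brown fat, had log2 fold change 0.66, SE 0.32, adjusted p = 0.16, and passed only without day 4 replicate 1. The β3-adrenergic receptor Adrb3 (0.18, adjusted p = 0.741) and the early beige factor Ebf2 (0.36, adjusted p = 0.205) did not pass either. Among 16 tested regulators of mitochondrial biogenesis, 3 rose and 1 fell with a median of 0.084 (1 and 3 without day 4 replicate 2, with -0.137), and the calls beside Ppargc1a were Gabpb1 (a subunit of nuclear respiratory factor 2, 0.47), Ppara (a fatty acid-sensing receptor, 1.05) and, lower, the mitochondrial DNA polymerase Polg (-0.54). Each of these was lost when some single library was left out: Gabpb1 without any of the 3 day 0 libraries, any of the 3 day 4 libraries or any of the 3 day 8 libraries (adjusted p between 0.0518 and 0.104), Ppara without replicates 1 or 2 of day 8 (adjusted p between 0.0638 and 0.084) and Polg without replicate 3 of day 4 or replicate 1 of day 8 (adjusted p between 0.0503 and 0.0633).

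**Figure D2:**
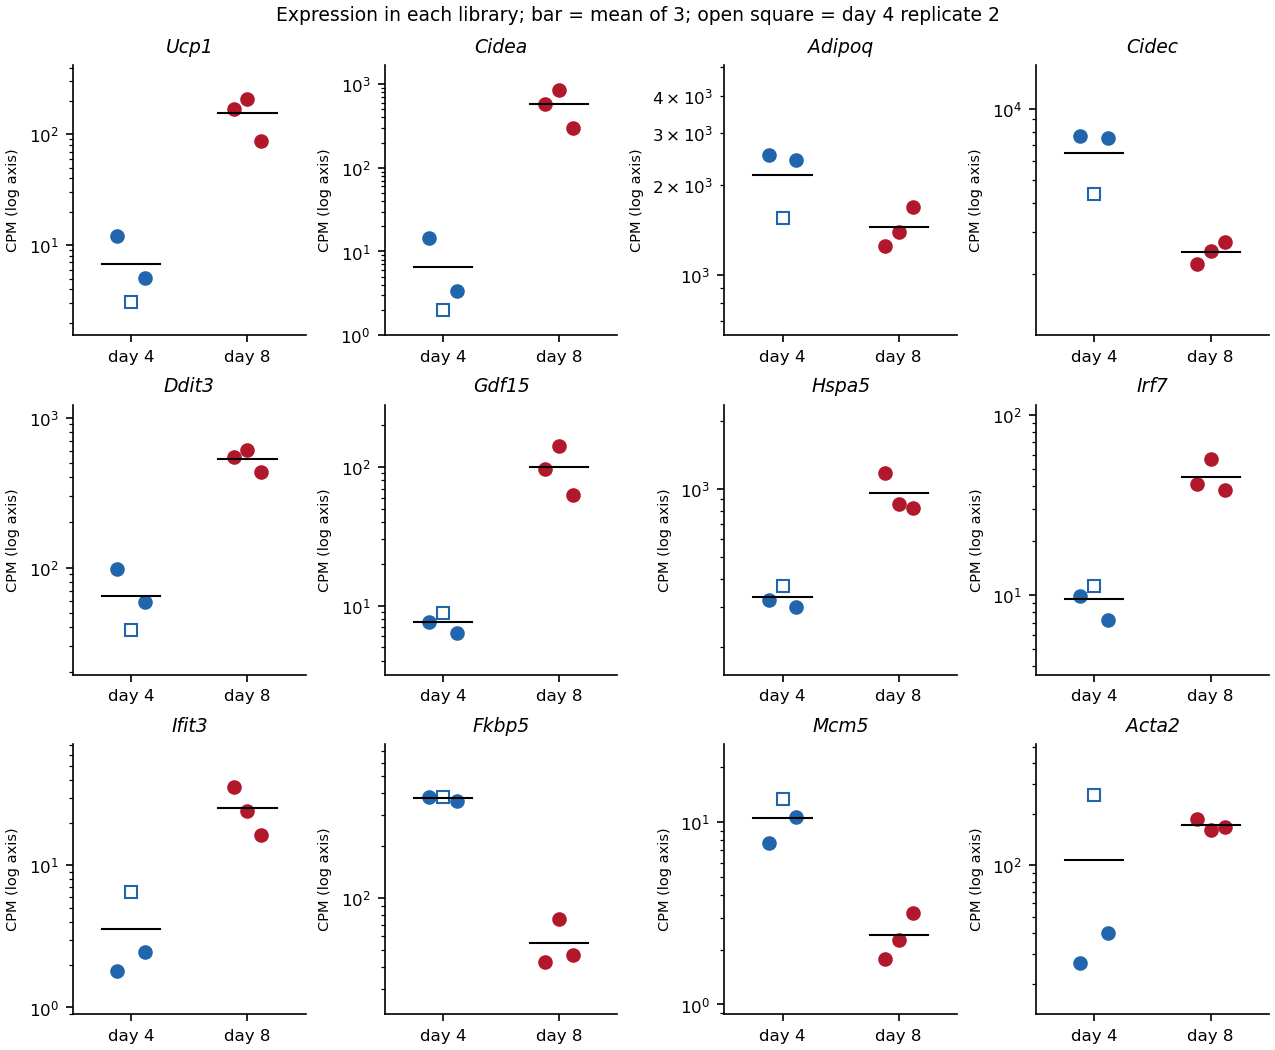
CPM on a log axis in each of the 3 day 4 libraries (blue; open square, replicate 2) and the 3 day 8 libraries (red) for 12 genes, with a bar at the mean of 3. Ucp1, Cidea, Ddit3, Gdf15, Hspa5, Irf7 and Ifit3 are higher and Cidec, Fkbp5 and Mcm5 lower in every day 8 library, while the days overlap for Adipoq and Acta2, where day 4 replicate 2 stands apart.

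The general fat cell program did not follow the thermogenic genes upward. Of 29 tested adipocyte genes, 2 rose and 8 fell, with a median of -0.115. In the fit without day 4 replicate 2, 2 rose and 12 fell, with a median of -0.359. The count of falls was 4 without replicate 3 of day 4 and 5 without replicate 1 of day 8. Cidec, the fat-specific protein that fuses lipid droplets into large ones, fell, with 7623, 4352 and 7534 CPM at day 4 and 2206, 2509 and 2742 CPM at day 8. Every day 8 library was below every day 4 library, and day 4 replicate 2 was the lowest of its day (log2 fold change -1.39, SE 0.26, adjusted p = 0.00502, and -1.66 without day 4 replicate 2). Its relative Cidea moved the opposite way. Adipoq, which encodes the hormone adiponectin, was at 2531, 1547 and 2427 CPM at day 4 and 1252, 1389 and 1692 CPM at day 8. The days overlapped through day 4 replicate 2, and the change did not pass (log2 fold change -0.59, SE 0.26, adjusted p = 0.126). Without that library it was -0.83 (adjusted p = 0.00811).

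Lipases and lipid droplet proteins were called in both directions: of 19 tested, 4 rose and 4 fell, with a median of 0.172. Without day 4 replicate 2 these counts were 4 and 5, with -0.048. Beside Cidea, Pnpla3 rose (log2 fold change 1.38, SE 0.27, adjusted p = 0.00638). Beside Cidec, lipid genes that fell were Abhd5, the coactivator of adipose triglyceride lipase (663 ± 142 CPM at day 4 against 314 ± 20.2 CPM at day 8, log2 fold change -1.08, SE 0.17, adjusted p = 0.00238), and Acsl1, which activates fatty acids (-0.96; lost without replicate 3 of day 4 (adjusted p = 0.0512)). Cav1, the caveolar coat protein, fell by 1.11 on the log2 scale. Cebpa, the adipogenic factor C/EBPα, had log2 fold change -0.68, SE 0.18, adjusted p = 0.0258, and the call was lost without replicate 3 of day 4 or replicates 1 or 3 of day 8 (adjusted p between 0.0533 and 0.0945). Pparg (0.13, adjusted p = 0.752), Fabp4 (0.19, 0.718) and the droplet coat Plin1 (0.17, 0.574) did not pass. Without day 4 replicate 2 their log2 fold changes were -0.123, -0.096 and -0.048. The 2 rises among the adipocyte genes were Pck1, the enzyme of glyceroneogenesis (10.7 ± 4.78 CPM at day 4 against 62.1 ± 11.3 CPM at day 8, log2 fold change 2.54, SE 0.32, adjusted p = 0.000765), and the thyrotropin receptor Tshr (2.21). Lep, the gene of leptin, had too few counts to be tested. Of 16 tested genes associated with white fat, 5 fell: Agt (angiotensinogen, 1316, 574 and 1081 CPM at day 4 and 184, 274 and 275 CPM at day 8, log2 fold change -2.02, SE 0.39, adjusted p = 0.00583), Mest (-2.32), Wfdc21 (-1.28), Psat1 (-0.46) and Serpina3k, which had no counts at day 8. Wfdc21 was lost without replicate 3 of day 4 or replicates 1 or 2 of day 8 (adjusted p between 0.108 and 0.126) and Psat1 without replicate 1 of day 0, replicate 3 of day 4 or replicates 1 or 2 of day 8 (adjusted p between 0.05 and 0.085), and there were 8 falls without day 4 replicate 1 and 7 without day 4 replicate 2. Serpina3k was at least 42.5-fold lower against a floor of 3 counts over the day 8 group, but belongs to a family of near-identical copies and is uncertain. The 2 rises were Slc7a10, an amino acid transporter (1.52), and Rb1 (0.97; lost without any of the 3 day 0 libraries, replicate 3 of day 4 or replicates 1 or 3 of day 8 (adjusted p between 0.0512 and 0.108)).

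Enzymes that build fatty acids fell at the start of the pathway. Acly, which makes cytosolic acetyl-CoA from citrate, was at 1700, 555 and 1534 CPM at day 4 and 293, 361 and 439 CPM at day 8, with no overlap (log2 fold change -1.79, SE 0.35, adjusted p = 0.00618). Acaca, the rate-limiting carboxylase (-1.09, adjusted p = 0.00374), Fasn, the synthase (-1.07, 0.00868), and Thrsp, a lipogenic protein induced by thyroid hormone (-1.94, 0.0165), also fell. The libraries of Thrsp overlapped, and its call was lost without replicate 3 of day 4 or replicates 1 or 3 of day 8 (adjusted p between 0.0541 and 0.0669). In all, 6 of 23 tested genes of fatty acid and triglyceride synthesis fell, and 10 without day 4 replicate 2. Mogat1 was the only member called higher (2.10, 3.19 without day 4 replicate 1; lost without any of the 3 day 0 libraries, replicates 2 or 3 of day 4 or any of the 3 day 8 libraries (adjusted p between 0.051 and 0.115)). Of 24 genes of cholesterol synthesis, 4 fell and none rose: Cyp51 (684 ± 310.0 CPM at day 4 against 146 ± 37.7 CPM at day 8, log2 fold change -2.22, SE 0.34, adjusted p = 0.00215), Dhcr7 (-1.55), Nsdhl (-0.71) and Hsd17b7 (-0.74; lost without replicate 3 of day 0, replicates 2 or 3 of day 4 or replicates 1 or 2 of day 8 (adjusted p between 0.0516 and 0.115)). Without day 4 replicate 2, 2 of the 24 were called higher and 5 lower. The medians with all libraries were 0.008 for fatty acid and triglyceride synthesis and 0.01 for cholesterol synthesis, and without day 4 replicate 2 they were -0.297 and -0.0535, against -0.00279 for all genes.

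Genes of oxidative phosphorylation lay mostly above 0, but few passed the test. In complex I, 36 of 37 subunit genes had a log2 fold change above 0, with a median of 0.565, and 9 rose. The count was 0 without replicate 3 of day 4 or replicate 2 of day 8, 1 without replicate 1 of day 8, 2 without any of the 3 day 0 libraries, 4 without replicate 2 of day 4 and 25 without replicate 1 of day 4, and the median without day 4 replicate 2 was 0.323. Other settings moved it as well: 15 rose with total counts in place of TMM or with DESeq2, 18 with no filter on low counts, and 0 with the 6 libraries of day 4 and day 8 alone. Ndufa3 (log2 fold change 1.04) lost its call without replicate 3 of day 4 or replicates 1 or 2 of day 8 (adjusted p between 0.0518 and 0.0935), and Ndufs7 (0.87) without any of the 3 day 0 libraries, replicates 2 or 3 of day 4 or replicates 1 or 2 of day 8 (adjusted p between 0.0572 and 0.129). As the plot of list medians by library shows, complex I genes were lowest in day 4 replicate 2 and highest in day 8 replicate 2. In complexes II and III, 1 of 14 was called, Uqcrb (0.79; lost without any of the 3 day 0 libraries, replicate 3 of day 4 or replicates 1 or 2 of day 8 (adjusted p between 0.059 and 0.098)). Of the 14, 1 rose without day 4 replicate 2 and 5 without day 4 replicate 1. Their median was 0.372 with all libraries and 0.111 without day 4 replicate 2. None of 16 ATP synthase genes and none of the 13 protein genes of the mitochondrial genome passed (medians 0.246 and 0.229). Without day 4 replicate 2 these medians were 0.0355 and 0.167. When day 4 replicate 2 was left out, 1 ATP synthase gene was called lower, and without day 4 replicate 1 there were 2 ATP synthase genes and 1 mitochondrially encoded gene higher. Without day 8 replicate 3, 1 mitochondrially encoded gene was higher.

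The cytochrome oxidase genes that rose most were tissue-specific isoforms. Cox4i2, the isoform of subunit 4 known from lung and low oxygen, was at 8.39, 3.30 and 8.31 CPM at day 4 and 32.1, 48.5 and 35.3 CPM at day 8 (log2 fold change 2.54, SE 0.32, adjusted p = 0.000802). Cox6a2, the muscle and brown fat isoform of subunit 6A, was at 6.43, 2.29 and 3.78 CPM at day 4 and 52.8, 83.1 and 39.6 CPM at day 8 (log2 fold change 3.82, SE 0.37, adjusted p = 0.000299). Both genes overlap a neighbour in the RefSeq annotation, Cox6a2 with Itgad (50.7 CPM at day 8) and Cox4i2 with Bcl2l1 (62.2 CPM), and the strand setting of the counting is not given in the sources used here. Cox8b rose, with 39.8, 12.7 and 23.9 CPM at day 4 and 103, 194 and 77.7 CPM at day 8, with no overlap. In all, 5 of 15 cytochrome oxidase genes rose and none fell, with a median of 0.586, or 0.312 with 4 higher without day 4 replicate 2. The count was 3 without replicate 3 of day 4 or replicates 1 or 2 of day 8 and 13 without replicate 1 of day 4. Of 78 tested mitochondrial ribosomal proteins, 10 rose, a share near the 11.7% of all genes that rose, and 1 fell. With day 4 replicate 2 left out, these counts were 5 and 7, and the median went from 0.186 to 0.0225. The count of rises was 20 without day 4 replicate 1, 2 without replicate 3 of day 4 or replicate 2 of day 8, 4 without day 8 replicate 1 and 6 without any of the 3 day 0 libraries. The single fall was lost without replicates 1 or 3 of day 4 or replicates 1 or 3 of day 8. In the tricarboxylic acid cycle with pyruvate entry, 2 of 26 genes rose, a share below 11.7%. These were Idh2 (1.01) and Pdk4, the kinase that shuts pyruvate dehydrogenase (89.3 ± 11.8 CPM at day 4 against 416 ± 158 CPM at day 8, log2 fold change 2.22, SE 0.29, adjusted p = 0.00105). There were 5 without day 4 replicate 1, and 3 genes fell without day 4 replicate 2. In mitochondrial fatty acid oxidation, 2 of 22 rose, also a share below 11.7%. They were Acot2 (1.56) and Hadhb (0.71; lost without replicate 3 of day 4 or replicates 1 or 2 of day 8 (adjusted p between 0.0604 and 0.0785)). The 2 that fell were Acsl1, described with the lipid enzymes, and Cpt1a, the liver-type carnitine palmitoyltransferase (-0.97; lost without any of the 3 day 0 libraries or any of the 3 day 8 libraries (adjusted p between 0.0506 and 0.106)). There were 6 rises without day 4 replicate 1 and 4 falls without day 4 replicate 2.

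**Figure D3:**
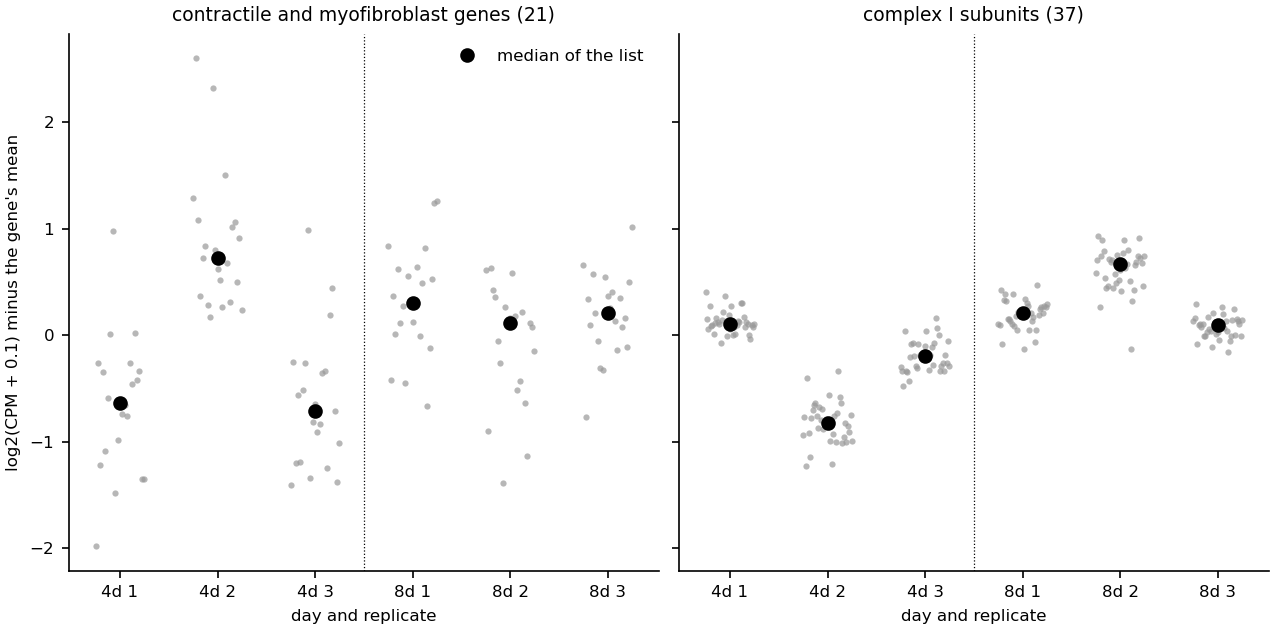
Log2(CPM + 0.1) minus the gene's mean over the 6 libraries for each tested contractile gene (21, left) and complex I gene (37, right) in every library; grey points are genes and black points list medians. In day 4 replicate 2 the contractile genes are the highest and the complex I genes the lowest of the 6 libraries.

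Glucose uptake and glycolysis genes lay above 0 in all 22 cases, with a median of 0.621, and 7 rose while none fell. In the fit without day 4 replicate 2, 9 rose and the median was 0.27, and without day 4 replicate 1, 12 rose. Slc2a1, the insulin-independent glucose transporter GLUT1, was at 102, 50.9 and 83.8 CPM at day 4 and 422, 356 and 263 CPM at day 8 (log2 fold change 2.13, SE 0.26, adjusted p = 0.000749). Slc16a1, which carries lactate and pyruvate across the membrane, was at 97.8 ± 21.7 CPM at day 4 against 315 ± 34.5 CPM at day 8 (log2 fold change 1.69, SE 0.19, adjusted p = 0.000468). Aldoc, an aldolase, had log2 fold change 2.44, SE 0.45, adjusted p = 0.0047 (3.10 without day 4 replicate 1), and Pfkp, a phosphofructokinase, log2 fold change 1.63, SE 0.23, adjusted p = 0.00174. All 4 had no overlap between the days. The insulin-regulated transporter gene Slc2a4 did not pass (0.16, adjusted p = 0.781).

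Among the stress response lists, the targets of ATF4 had more rises than falls at day 8. The factor ATF4 is made when translation initiation is slowed by amino acid lack or by endoplasmic reticulum or mitochondrial stress, and it switches on amino acid supply and stress genes. Of 30 listed ATF4 and integrated stress response targets, all tested, 15 rose and 1 fell (Psat1), with a median of 0.642. Without day 4 replicate 2, 15 rose and 2 fell, with a median of 0.434. Ddit3, the factor CHOP, was at 97.8, 38.7 and 58.7 CPM at day 4 and 547, 609 and 431 CPM at day 8 (log2 fold change 3.02, SE 0.30, adjusted p = 0.000305). Gdf15, a secreted stress cytokine, was at 7.64, 8.82 and 6.34 CPM at day 4 and 97.5, 141 and 62.4 CPM at day 8 (log2 fold change 3.72, SE 0.32, adjusted p = 0.0002). Atf3, a stress-induced factor, was at 6.51, 3.34 and 4.29 CPM at day 4 and 34.2, 39.6 and 44.1 CPM at day 8 (log2 fold change 3.06, SE 0.33, adjusted p = 0.00039). All day 8 libraries were higher than all day 4 libraries for each of these. Trib3, a pseudokinase induced by CHOP, had log2 fold change 2.43, SE 0.36, adjusted p = 0.00202, and Atf4 itself log2 fold change 0.96, SE 0.16, adjusted p = 0.0033. When day 4 replicate 2 was left out, the log2 fold changes were 2.70 for Ddit3, 3.79 for Gdf15, 2.81 for Atf3, 2.01 for Trib3 and 0.79 for Atf4. Psat1 was lost without replicate 1 of day 0, replicate 3 of day 4 or replicates 1 or 2 of day 8 (adjusted p between 0.05 and 0.085).

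Not every known ATF4 target rose. The amino acid transporter Slc7a5 (-0.40, adjusted p = 0.129), the serine synthesis enzyme Phgdh (-0.39, 0.16) and the mitochondrial folate enzyme Mthfd2 (0.24, 0.461) did not pass. Fgf21, a hormone of fat and liver, had 0.78 (adjusted p = 0.148). Without day 4 replicate 1, Fgf21 was called higher (adjusted p = 0.0178) and Slc7a5 lower (0.0206). Cytosolic aminoacyl-tRNA synthetases, which ATF4 also controls, had 4 of 20 higher and 1 lower (2 and 1 without day 4 replicate 2). The largest rise among them was Wars, the tryptophanyl enzyme (log2 fold change 0.92, SE 0.13, adjusted p = 0.00158). The others higher were Eprs (0.48), Gars (0.50) and Cars (0.47), and Qars was lower (-0.50). Eprs was lost without any of the 3 day 0 libraries, replicates 2 or 3 of day 4 or replicates 1 or 2 of day 8 (adjusted p between 0.0511 and 0.0803), Gars without any of the 3 day 0 libraries, replicates 2 or 3 of day 4 or replicates 1 or 2 of day 8 (adjusted p between 0.0596 and 0.0839), Cars without replicates 2 or 3 of day 0, replicates 2 or 3 of day 4 or replicates 1 or 2 of day 8 (adjusted p between 0.0504 and 0.1) and Qars without replicates 1 or 3 of day 8 (adjusted p between 0.0782 and 0.0835).

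Endoplasmic reticulum chaperones and quality control genes formed another rising group. When unfolded proteins gather in the reticulum, the factors ATF6 and XBP1 act on chaperone promoters, many of which carry an element of a CCAAT box and a CCACG half-site set apart by a fixed gap. That element, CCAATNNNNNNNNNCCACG read on both strands, was searched in the 300 bases from 250 before to 50 after each start site (RefSeq, GRCm38.p6, matched by symbol because the submitters' processing notes name GRCm39). It was found in 37 of 27025 genes (0.137%) and in 9 of the 20 listed chaperone genes with a promoter entry, of which 4 were among the 9 such genes that rose. The list was drawn up from known chaperone genes, so this share describes the list. Over all tested genes with an entry, 0.468% of those that rose, none of 1206 that fell and 0.143% of the rest held it. A gene with several entries was counted if any of them held the element. The CCAAT box inside the element is common by itself, in 41.1% of genes with an entry. The stretches below show it in a chaperone, an exported chaperone and a degradation factor, with its fixed letters in capitals and 20 bases on either side.
Hspa5 (chr2:34772005-34772063, plus strand): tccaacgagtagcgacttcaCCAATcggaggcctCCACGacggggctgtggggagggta
Creld2 (chr15:88819500-88819558, plus strand): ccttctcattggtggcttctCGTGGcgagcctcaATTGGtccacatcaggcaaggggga
Derl3 (chr10:75893222-75893280, plus strand): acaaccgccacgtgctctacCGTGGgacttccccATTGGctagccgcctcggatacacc

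Of the 22 genes of that list, 11 rose and none fell, with a median of 0.502. With day 4 replicate 2 left out, 13 rose and the median was 0.577. Hspa5, the master chaperone BiP, was at 324, 371 and 301 CPM at day 4 and 1178, 859 and 825 CPM at day 8 (log2 fold change 1.52, SE 0.17, adjusted p = 0.000491). Sdf2l1, a partner of BiP, was at 15.0, 23.7 and 16.2 CPM at day 4 and 88.2, 112 and 69.7 CPM at day 8 (log2 fold change 2.30, SE 0.23, adjusted p = 0.000305). Ero1a, the oxidase that supplies disulfide bonds, was at 484, 118 and 376 CPM at day 4 and 1853, 1321 and 1635 CPM at day 8 (log2 fold change 2.30, SE 0.41, adjusted p = 0.00416). The days did not overlap for any of the 3. Ero1b (1.75), Herpud1, which scaffolds the degradation complex (1.53), and Creld2 (1.23) rose too. The largest change in this pathway lay outside the list: Derl3, a channel protein of reticulum-associated degradation, was at 0.584, 0.653 and 0.197 CPM at day 4 and 8.57, 14.1 and 10.6 CPM at day 8 (log2 fold change 4.52, SE 0.42, adjusted p = 0.000249). Protein disulfide isomerases Pdia3 (-0.09, adjusted p = 0.79) and P4hb (-0.21, 0.33) and the factor Xbp1 (0.18, 0.345) did not pass.

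Among 26 genes of the oxidative stress response driven by the factor Nrf2, 5 rose (6 without day 4 replicate 2). Hmox1, heme oxygenase, was at 283, 359 and 279 CPM at day 4 and 2016, 2865 and 2046 CPM at day 8, with the day 8 libraries well above day 4 (log2 fold change 2.91, SE 0.21, adjusted p = 8.52e-05, and 2.98 without day 4 replicate 2). The other rises were Gsta4 (log2 fold change 1.70, SE 0.26, adjusted p = 0.00223), Gclm, the modifier subunit of glutathione synthesis (0.98), Srxn1 (0.92) and Gpx4 (0.80; lost without any of the 3 day 0 libraries, replicate 3 of day 4 or replicates 2 or 3 of day 8 (adjusted p between 0.0528 and 0.107)). Nqo1, often used as a Nrf2 readout, had log2 fold change -0.60, SE 0.41, adjusted p = 0.312. The 2 that fell were Gpx1 (-0.62) and Prdx1 (-0.44; lost without any of the 3 day 0 libraries, replicates 1 or 3 of day 4 or any of the 3 day 8 libraries (adjusted p between 0.0521 and 0.131)), and 6 fell without day 4 replicate 2.

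The interferon response genes had the highest share of rises of any list drawn in the plot of gene lists. Type I interferons act through a transcription factor complex that includes IRF9 and binds the interferon-stimulated response element, a repeat of GAAA. This element, GAAANNGAAA read on both strands, lay in the 300-base window of 1079 of 27025 genes (3.99%) and of 13 of the 21 listed interferon genes with an entry. Of the 15 listed genes with an entry that rose, 10 held it. Over all tested genes with an entry, counted in the same way, it was in 4.45% of those that rose, 2.99% of those that fell and 3.66% of the rest. The sequences below are the matching stretches, with the fixed letters of each copy in capitals and 20 bases on either side; on some strands the repeat reads TTTC. Ifit3 and Ifit3b, neighbours on chromosome 19, have the same 84 bases here, so their reads may not be told apart either.
Ifit1 (chr19:34640765-34640833, plus strand): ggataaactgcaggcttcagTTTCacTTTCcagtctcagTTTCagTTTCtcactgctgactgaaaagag
Ifit3 (chr19:34583353-34583436, plus strand): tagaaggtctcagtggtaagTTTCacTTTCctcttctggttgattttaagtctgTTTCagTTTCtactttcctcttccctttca
Ifit3b (chr19:34607749-34607832, plus strand): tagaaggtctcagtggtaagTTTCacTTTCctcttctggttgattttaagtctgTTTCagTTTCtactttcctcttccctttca
Rsad2 (chr12:26456543-26456592, minus strand): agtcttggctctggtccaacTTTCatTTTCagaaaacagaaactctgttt
Cxcl10 (chr5:92349073-92349122, minus strand): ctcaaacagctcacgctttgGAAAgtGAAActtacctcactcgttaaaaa
Isg15 (chr4:156200855-156200916, minus strand): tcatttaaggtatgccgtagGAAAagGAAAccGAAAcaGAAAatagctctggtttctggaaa

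Of 29 tested interferon response genes of 30 listed (Mx1 was too low), 21 rose and 1 fell, with a median log2 fold change of 1.29. In the fit without day 4 replicate 2, there were 20 and 1, with a median of 1.56. The count of rises was 11 without replicate 3 of day 4 and 12 without replicate 2 of day 8. Rsad2, the antiviral enzyme viperin, was at 0.0834, 0.0726 and 0.118 CPM at day 4 and 5.69, 4.07 and 1.96 CPM at day 8 (log2 fold change 5.36, SE 0.60, adjusted p = 0.000463). Cxcl10, a chemokine for T cells, was at 0, 0.109 and 0.118 CPM at day 4 and 2.36, 3.35 and 1.61 CPM at day 8 (log2 fold change 4.90, SE 0.63, adjusted p = 0.000934). Ifit3, which binds foreign RNA, was at 1.79, 6.46 and 2.44 CPM at day 4 and 35.7, 24.2 and 16.5 CPM at day 8 (log2 fold change 2.83, SE 0.46, adjusted p = 0.00275; 3.53 without day 4 replicate 2), and Ifit3b at 0.709, 0.907 and 0.276 CPM at day 4 and 7.74, 4.29 and 2.98 CPM at day 8 (log2 fold change 2.97, SE 0.48, adjusted p = 0.0028). Day 8 replicate 3 was the lowest of its day for all 4, and day 4 replicate 2 the highest of its day for Ifit3 and Ifit3b. Irf7, the factor that amplifies the response, was at 9.89, 11.2 and 7.21 CPM at day 4 and 41.2, 56.7 and 38.0 CPM at day 8, with no overlap (log2 fold change 2.26, SE 0.22, adjusted p = 0.000299). Stat2 (0.41, adjusted p = 0.28) and Irf9 (0.49, 0.171) did not pass, but rose without day 4 replicate 2 (0.80, adjusted p = 0.00355, and 0.85, 0.00242). The macrophage and lymphocyte markers that could accompany such genes are given below with the other cell types.

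Of 18 tested inflammatory cytokine and acute phase genes, 4 rose and 3 fell. Hp, haptoglobin, an acute phase protein that fat cells make, fell, with 3100, 1894 and 3545 CPM at day 4 and 562, 643 and 736 CPM at day 8 (log2 fold change -2.14, SE 0.23, adjusted p = 0.000396). Serpina3n (log2 fold change -2.42, SE 0.41, adjusted p = 0.00357; -3.06 without day 8 replicate 3) and Lcn2, lipocalin 2 (log2 fold change -1.29, SE 0.32, adjusted p = 0.017), fell as well, the last lost without replicate 3 of day 4 or replicates 1 or 2 of day 8 (adjusted p between 0.0512 and 0.0678). The rises were of genes at low levels: Ptx3 (log2 fold change 1.05, SE 0.30, adjusted p = 0.0294; lost without replicates 1 or 3 of day 4 or any of the 3 day 8 libraries (adjusted p between 0.0564 and 0.0987)), Ptgs2, cyclooxygenase 2 (log2 fold change 3.96, SE 0.52, adjusted p = 0.00111), Nos2, the inducible nitric oxide synthase, and Il6. Nos2 had no counts at day 4 and was at least 35.5-fold higher at day 8 against a floor of 3 counts over the day 4 group. Il6 had 1 count at day 4 and 35 at day 8, a ratio of 32.1 with a 95% counting interval of 5.39 to 1300. Its days overlapped in CPM, and the call was lost without any of the 3 day 0 libraries, any of the 3 day 4 libraries or replicates 1 or 3 of day 8 (adjusted p between 0.0534 and 0.124). Its log2 fold change was 4.59 with all libraries, against 6.59 without day 4 replicate 2 and 3.40 without day 8 replicate 3. The count of rises was 2 without replicates 1 or 3 of day 4 or replicates 1 or 3 of day 8 and 8 without replicate 2 of day 4, and the median was 0.22 with all libraries and 1.24 without day 4 replicate 2.

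Among secreted factors, 11 of 27 tested genes rose and 2 fell, with a median of 0.699 (13 and 3, with 0.549, without day 4 replicate 2). Beside Gdf15 and Il6, Rbp4, the retinol carrier, rose (log2 fold change 2.0, SE 0.55, adjusted p = 0.0266; 2.67 without day 4 replicate 1; lost without replicate 3 of day 4 or replicates 1 or 2 of day 8 (adjusted p between 0.0588 and 0.078)). Slit2, a guidance protein, fell (log2 fold change -2.38, SE 0.44, adjusted p = 0.0048; -1.71 without day 4 replicate 2), as did Lcn2. The count of rises was 5 without replicate 3 of day 4 and 7 without replicate 2 of day 8. That of falls was 1 without replicate 3 of day 4 or replicates 1 or 2 of day 8.

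Of known targets of the glucocorticoid receptor, more fell than rose. The receptor's agonist dexamethasone had been in the medium until 2 days before the day 4 samples. Whether its removal bears on these genes was not tested. Time since removal and time of differentiation cannot be told apart here. Of 17 tested members, 8 fell, 8 did not pass and 1 rose, Pdk4, with a median of -0.564. Without day 4 replicate 2, 9 fell and 1 rose, with a median of -0.523. Fkbp5, a co-chaperone of the receptor, was at 379, 383 and 359.9 CPM at day 4 and 42.8, 75.9 and 47.2 CPM at day 8. The 3 day 4 libraries, replicate 2 included, were close to each other and all above day 8 (log2 fold change -2.76, SE 0.22, adjusted p = 0.000133). Sgk1, a kinase, was at 31.4, 104 and 37.6 CPM at day 4 and 7.08, 6.36 and 8.17 CPM at day 8 (log2 fold change -3.0, SE 0.40, adjusted p = 0.00122; -2.31 without day 4 replicate 2). Hif3a, an inhibitory relative of the hypoxia factors, fell, with 6.69 ± 1.20 CPM at day 4 against 1.45 ± 0.209 CPM at day 8 (log2 fold change -2.21, SE 0.35, adjusted p = 0.00264). Zbtb16, the repressor PLZF, was at 32.9, 37.3 and 36.8 CPM at day 4 and 13.5, 16.9 and 11.5 CPM at day 8 (log2 fold change -1.35, SE 0.18, adjusted p = 0.0022). At day 0 the means were 31.2 CPM for Fkbp5, 58.1 for Sgk1, 0.0378 for Hif3a and 0 for Zbtb16. Per1 (-0.10, adjusted p = 0.774) and Klf9 (-0.07, 0.837), which the receptor also controls, did not pass. The number of targets that rose was 2 without day 4 replicate 1.

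Circadian clock genes were called in 1 direction. Of 19 tested, 7 rose and none fell, with a median of 0.652, or 6 and 0.32 without day 4 replicate 2. The repressor Nr1d2 was at 7.59, 4.54 and 6.06 CPM at day 4 and 24.1, 12.6 and 14.4 CPM at day 8 (log2 fold change 1.49, SE 0.28, adjusted p = 0.00495), and the output factor Dbp at 36.5, 22.6 and 28.2 CPM at day 4 and 55.3, 77.3 and 60.8 CPM at day 8 (log2 fold change 1.15, SE 0.20, adjusted p = 0.00422). Dbp overlaps Sphk2 (60.5 CPM at day 8) and is uncertain. Nr1d1 (1.08), the paralog of Nr1d2, overlaps the opposite-strand gene Thra (69.4 CPM at day 8), which fell by 0.69 (lost without replicate 3 of day 4 or replicates 1 or 3 of day 8 (adjusted p between 0.0695 and 0.0927)). The core factor Arntl (-0.55, adjusted p = 0.0572) and Per2 (-0.03, 0.934) did not pass, though Arntl was called lower without day 4 replicate 1 (adjusted p = 0.031). The labels used here give no hour of harvest.

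Genes that respond to cAMP gave 6 rises of 19 and no fall, among them Fosb (1.09), Junb (log2 fold change 1.06, SE 0.18, adjusted p = 0.00341), Pde4d (0.95), Ppargc1a and Il6. As a whole the list was near 0, with a median of 0.067 (0.174 without day 4 replicate 2), 10 members above 0 and 9 below. The count of rises was 1 without replicate 1 of day 8, 2 without replicate 3 of day 4 and 3 without replicates 1 or 2 of day 0, replicate 2 of day 4 or replicate 2 of day 8. Fosb was lost without replicates 1 or 2 of day 0, replicates 2 or 3 of day 4 or any of the 3 day 8 libraries (adjusted p between 0.0602 and 0.117) and Pde4d without replicates 1 or 2 of day 8 (adjusted p between 0.0596 and 0.0699). Of 13 genes that respond to thyroid hormone, which stayed in the medium, 3 rose (Ucp1, Hr with 1.43 and Bcl3 with 0.89) and 4 fell (Thrsp, Fasn, Cpt1a and the receptor gene Thra). There were 3 rises and 5 falls without day 4 replicate 2. The count of falls was 1 without replicates 1 or 3 of day 8 and 2 without replicate 3 of day 4.

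Calls among ribosome biogenesis genes were all in the lower direction. Of 28 ribosome biogenesis genes, 9 fell and none rose, with a median of -0.29, and without day 4 replicate 2 there were 8 and -0.255. Nop56, a core protein of the particles that methylate ribosomal RNA, was at 32.2, 64.2 and 51.4 CPM at day 4 and 20.3, 20.3 and 26.3 CPM at day 8 (log2 fold change -1.14, SE 0.22, adjusted p = 0.0065). It hosts small nucleolar RNAs and overlaps Idh3b in the RefSeq annotation. Rrs1 (-0.79) and Wdr12 (-0.72) fell too. Of 79 cytosolic ribosomal protein genes, 72 had a log2 fold change below 0, with a median of -0.28. Of these 9 passed (10 without day 4 replicate 2), all lower, a share of the 79 near the 10.8% of all genes that fell. The count was 1 without replicate 1 of day 8 and 2 without replicate 3 of day 8, and 18 with DESeq2. Rpl10a had log2 fold change -0.84, SE 0.19, adjusted p = 0.0117. Counts of ribosomal protein genes can be split with processed pseudogenes and are uncertain in size. Among 42 translation factors, 6 fell and 2 rose, with the same counts without day 4 replicate 2. The share of falls was not far from the 10.8% of all genes tested, and that of rises was below 11.7%. Eef1b2, an elongation factor subunit, had log2 fold change -0.89, SE 0.18, adjusted p = 0.00738, and Eif4g1, the scaffold of the cap complex, log2 fold change -0.87, SE 0.13, adjusted p = 0.00195. The 2 rises were Eif4a2, a helicase (log2 fold change 1.12, SE 0.23, adjusted p = 0.00749), and Eif1 (0.86; lost without replicate 3 of day 4 (adjusted p = 0.0514)). The count of rises was 1 without replicate 3 of day 4 and 4 without replicate 1 of day 4.

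Cell cycle genes had the highest share of falls of any list drawn. Of 32, 20 fell and none rose, with a median of -0.879. When day 4 replicate 2 was left out, 18 fell, with a median of -0.712. The count was 10 without replicate 2 of day 8 and 12 without replicate 1 of day 8. Mcm5, a subunit of the replication helicase, was at 7.72, 13.4 and 10.7 CPM at day 4 and 1.77, 2.26 and 3.19 CPM at day 8 (log2 fold change -2.14, SE 0.28, adjusted p = 0.00105). Rrm2, which makes deoxynucleotides, was at 23.9, 96.8 and 33.4 CPM at day 4 and 12.1, 10.9 and 17.9 CPM at day 8 (log2 fold change -1.91, SE 0.44, adjusted p = 0.0132; -1.12 without day 4 replicate 2; lost without replicates 1 or 2 of day 8 (adjusted p between 0.0546 and 0.059)). Day 4 replicate 2 was the highest library for both, and the other day 4 libraries still lay above day 8. Foxm1, a factor of mitotic genes, had log2 fold change -1.71, SE 0.38, adjusted p = 0.0114 (lost without replicate 2 of day 8 (adjusted p = 0.0509)). The proliferation marker Mki67 did not pass (log2 fold change -0.87, SE 0.33, adjusted p = 0.0785). The cell cycle genes summed to 628, 961 and 723 CPM at day 4 and 476, 398 and 489 CPM at day 8, against 983 to 1103 CPM at day 0.

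Some markers of preadipocytes and progenitors also fell. Of 23 tested, 10 fell, 13 did not pass and none rose, with a median of -0.475. The count was 4 without replicate 1 of day 8 and 5 without replicate 2 of day 8. With day 4 replicate 2 left out, 10 fell and 1 rose. Cd24a, a surface marker of adipocyte precursors, was at 5.38, 24.4 and 2.95 CPM at day 4 and 1.11, 0.640 and 0.841 CPM at day 8 (log2 fold change -3.65, SE 0.73, adjusted p = 0.00688; -2.31 without day 4 replicate 2). Pi16, a marker of fascial fibroblast progenitors, was at 1.08, 8.96 and 2.21 CPM at day 4 and 0, 0.226 and 0 CPM at day 8 (log2 fold change -5.75, SE 1.10, adjusted p = 0.00569; -4.49 without day 4 replicate 2 and -9.92 without day 8 replicate 2). Gata2, which holds back adipogenesis, had log2 fold change -2.92, SE 0.72, adjusted p = 0.0173 (-1.94 without day 4 replicate 2 and -4.12 without day 8 replicate 3), and the stem cell antigen Cd34 log2 fold change -2.16, SE 0.53, adjusted p = 0.0173 (-3.01 without day 8 replicate 3). Gata2 was lost without replicates 1 or 2 of day 8 (adjusted p between 0.0633 and 0.0691) and Cd34 without replicate 3 of day 4 or replicates 1 or 2 of day 8 (adjusted p between 0.0526 and 0.071). Pdgfra, the receptor that marks these precursors, was at 59.5, 155.5 and 87.4 CPM at day 4 and 47.7, 38.0 and 53.6 CPM at day 8. It had log2 fold change -1.12, SE 0.29, adjusted p = 0.021 (-0.71 without day 4 replicate 2) and was lost without replicates 1 or 2 of day 8 (adjusted p between 0.0629 and 0.0813). For Cd24a, Pi16, Gata2, Cd34 and Pdgfra alike, day 4 replicate 2 was the highest of the day 4 and day 8 libraries.

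Extracellular matrix genes were lower in most cases. Of 35 genes of the fibrillar matrix, 32 had a log2 fold change below 0, 11 fell and 1 rose, with a median of -0.695. In the fit without day 4 replicate 2, 12 fell and 2 rose, with a median of -0.442. The count of falls was 6 without replicate 2 of day 8, 7 without replicate 1 of day 8 and 20 without replicate 1 of day 4. Eln, elastin, was at 32.8, 47.0 and 45.0 CPM at day 4 and 4.96, 6.10 and 11.3 CPM at day 8 (log2 fold change -2.48, SE 0.36, adjusted p = 0.00173). Vcan, the proteoglycan versican, was at 63.3, 126 and 67.7 CPM at day 4 and 20.3, 15.7 and 28.2 CPM at day 8 (log2 fold change -2.0, SE 0.29, adjusted p = 0.00177). Both lay lower in all day 8 libraries. Col11a1, a chain of collagen XI, had log2 fold change -2.52, SE 0.51, adjusted p = 0.00749 (-1.59 without day 4 replicate 2), and Fbn1, fibrillin 1, log2 fold change -1.79, SE 0.42, adjusted p = 0.0146 (-1.08 without day 4 replicate 2; lost without replicates 1 or 2 of day 8 (adjusted p between 0.0551 and 0.063)). Col1a1, the main collagen I chain, was at 3276, 6840 and 4304 CPM at day 4 and 3077, 2685 and 4214 CPM at day 8 and did not pass (log2 fold change -0.53, SE 0.29, adjusted p = 0.204). In the basement membrane list 6 of 18 fell, with a median of -0.597 (5, with -0.406, without day 4 replicate 2; 10 with DESeq2). Among them were the paired collagen IV genes Col4a1 (3156 ± 491 CPM at day 4 against 1358 ± 146 CPM at day 8, log2 fold change -1.22, SE 0.18, adjusted p = 0.00191) and Col4a2 (-1.51), which are neighbours that share a promoter region, and the laminins Lama2 (-1.46) and Lama5 (-1.50; -0.83 without day 4 replicate 2). Lama5 was lost without replicate 2 of day 4 or any of the 3 day 8 libraries (adjusted p between 0.0686 and 0.103). The single rises were Thbs1 in the fibrillar list (1.63, days overlapping; 2.57 without day 4 replicate 2; lost without any of the 3 day 0 libraries, replicates 1 or 3 of day 4 or replicates 1 or 3 of day 8 (adjusted p between 0.0589 and 0.125)) and Col15a1 in the other (0.64; lost without replicates 2 or 3 of day 0, replicates 2 or 3 of day 4 or any of the 3 day 8 libraries (adjusted p between 0.0539 and 0.142)).

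Among all lists, the count of rises moved most with day 4 replicate 2 in the contractile genes. With all libraries none of 21 rose and 2 fell, Myh11, smooth muscle myosin (-1.44; lost without replicate 3 of day 4 or replicate 2 of day 8 (adjusted p between 0.0518 and 0.0585)), and Flna, filamin A (-0.84, days overlapping; lost without any of the 3 day 0 libraries, replicates 2 or 3 of day 4 or replicates 1 or 2 of day 8 (adjusted p between 0.065 and 0.155)). Without that library 14 rose and 1 fell, and the median went from 0.312 to 0.813. Acta2, smooth muscle actin, was at 26.7, 258 and 39.8 CPM at day 4 and 189, 161 and 167 CPM at day 8. Day 4 replicate 2 was the highest of the 6 libraries and the other 2 of day 4 the lowest. The log2 fold change was 0.67 (SE 0.65, adjusted p = 0.477) with it and 2.32 (adjusted p = 4.50e-05) without it. The contractile genes summed to 911, 2238 and 904 CPM at day 4 and 1744, 1474 and 1640 CPM at day 8, against 8718 to 10720 CPM at day 0. Without day 4 replicate 1, 4 of the list fell.

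Markers of other cell types that could be present in the culture were checked beside these groups. The 14 macrophage markers summed to 68.4 to 92.0 CPM at day 4 and 10.5 to 58.4 CPM at day 8; of 12 tested, 3 fell (Mrc1, C1qa and C1qc), 8 did not pass and 1 rose, Cd68 (1.59), a gene of lysosomes, with the same counts of rises and falls without day 4 replicate 2. Mrc1 (-2.76; -2.18 without day 8 replicate 1 and -4.21 without day 8 replicate 3) was lost without replicates 2 or 3 of day 0, replicate 3 of day 4 or replicates 1 or 2 of day 8 (adjusted p between 0.0535 and 0.119), C1qc (-1.99) without replicate 2 of day 0, replicate 3 of day 4 or replicate 2 of day 8 (adjusted p between 0.0511 and 0.077) and Cd68 without replicates 1 or 3 of day 4 or replicates 2 or 3 of day 8 (adjusted p between 0.0513 and 0.109); the log2 fold change of C1qa was -2.35. The pan-leukocyte marker Ptprc and Aif1 were too low to test. Endothelial markers summed to 29.6 to 32.7 CPM at day 4 and 12.5 to 18.8 CPM at day 8, with 1 of 7 lower, Egfl7 (-0.87; lost without replicates 1 or 3 of day 4 or any of the 3 day 8 libraries (adjusted p between 0.0506 and 0.106)). Lymphocyte markers summed to 0.473 to 0.907 CPM at day 4 and 0.666 to 1.58 CPM at day 8, with 5 of 9 at 0 in these libraries. Mammary epithelial markers summed to at most 0.584 CPM, with 3 of 9 at 0. The mural cell markers summed to 341, 125 and 295 CPM at day 4 and 594, 779 and 643 CPM at day 8. Most of each sum except that of day 4 replicate 2 came from Ndufa4l2, so the sums largely follow this 1 gene. Ndufa4l2, also a gene of low oxygen and a neighbour that overlaps Shmt2, was at 263, 53.4 and 209 CPM at day 4 and 543, 721 and 581 CPM at day 8. It had log2 fold change 1.81, SE 0.45, adjusted p = 0.018 and was lost without replicate 2 of day 8 (adjusted p = 0.0609). Cspg4 (1.04) rose, with the call lost without replicate 3 of day 4 or replicates 1 or 2 of day 8 (adjusted p between 0.0555 and 0.0613), and Mcam fell (-1.58). The part of these other cells in the results was not tested.

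**Figure D4:**
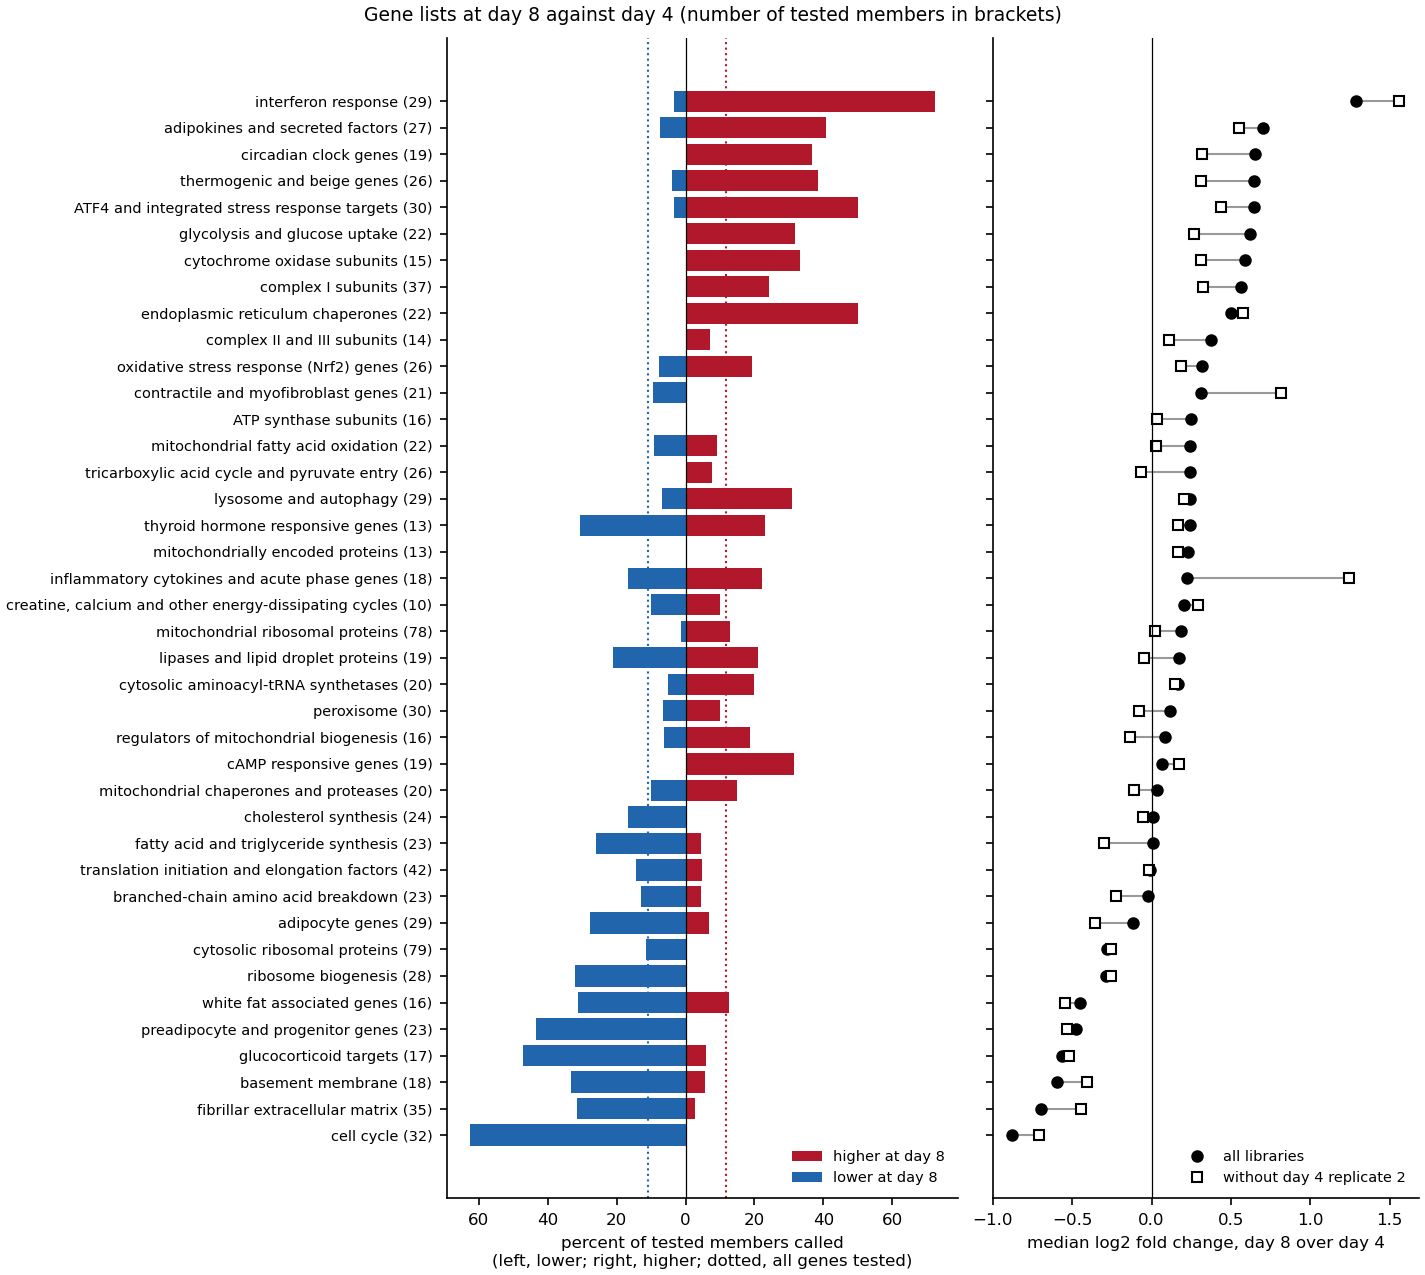
Left, percent of the tested members of 40 gene lists that rose (red, to the right) or fell (blue, to the left) at day 8, with dotted lines at the shares over all genes tested (11.7% and 10.8%). Right, median log2 fold change of each list with all libraries (filled circles) and without day 4 replicate 2 (open squares); interferon response is highest at 1.29 and cell cycle lowest at -0.879.

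Outside the lists, the rises with the smallest p-values were those of Mreg, melanoregulin, an organelle transport protein, and Cdsn, a cell adhesion protein of skin. Mreg was at 3.67, 3.48 and 4.13 CPM at day 4 and 81.2, 78.0 and 75.2 CPM at day 8 (log2 fold change 4.38, SE 0.15, adjusted p = 2.84e-07). Cdsn was at 6.05, 4.75 and 3.58 CPM at day 4 and 160.4, 156 and 180.5 CPM at day 8 (log2 fold change 5.11, SE 0.28, adjusted p = 1.41e-05). The day 8 libraries of both were close together and far above day 4. Next were Gadd45a, a growth arrest gene (7.59 ± 0.922 CPM at day 4 against 56.5 ± 9.04 CPM at day 8, log2 fold change 2.90, SE 0.19, adjusted p = 5.00e-05), Arhgap33 (3.30, adjusted p = 5.81e-05) and the glutathione transferase Gstt2 (3.38, 7.36e-05). Among the 15 largest rises at 5 CPM or more were also Tmem266 (log2 fold change 6.0, SE 0.73, adjusted p = 0.000649; 6.98 without day 4 replicate 1 and 5.34 without day 4 replicate 2), Depp1, a gene of autophagy control (log2 fold change 5.0, SE 0.77, adjusted p = 0.00372; 5.89 without day 4 replicate 1), Gipr, the receptor of the incretin GIP (log2 fold change 3.82, SE 0.69, adjusted p = 0.00456; 3.19 without day 4 replicate 2), Tuba8 (4.51; 5.14 without day 4 replicate 1) and Extl1 (4.46; 5.10 without day 4 replicate 1). The class I histocompatibility genes H2-Q7 (5.50) and H2-Q10 (4.53; 5.25 without day 4 replicate 1) were in this set, but share reads with near-identical copies and are uncertain. Car9, a carbonic anhydrase induced by low oxygen (4.06), overlaps Tpm2 (85.0 CPM at day 8).

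The fall with the smallest p-value was that of Map7d2, a microtubule-associated protein, at 63.0, 46.7 and 67.6 CPM at day 4 and 0.867, 1.28 and 1.79 CPM at day 8 (log2 fold change -5.49, SE 0.28, adjusted p = 8.67e-06). It was also the largest fall at 5 CPM or more. Glud1, glutamate dehydrogenase, was at 801, 638 and 832 CPM at day 4 and 199, 184 and 189 CPM at day 8 (log2 fold change -1.99, SE 0.14, adjusted p = 8.52e-05), with the libraries of each day close together. Gnptab, which tags lysosomal enzymes (87.0 ± 10.8 CPM at day 4 against 26.2 ± 2.86 CPM at day 8, log2 fold change -1.73, SE 0.15, adjusted p = 0.0002), and Sav1, a scaffold of the Hippo pathway (112 ± 5.73 CPM at day 4 against 42.2 ± 5.12 CPM at day 8, log2 fold change -1.41, SE 0.13, adjusted p = 0.000214), fell as well. Other large falls were those of Sult1a1, a sulfotransferase (125 ± 45.3 CPM at day 4 against 10.9 ± 3.63 CPM at day 8, log2 fold change -3.52, SE 0.32, adjusted p = 0.000221), Cyp2e1 (log2 fold change -4.47, SE 0.80, adjusted p = 0.00662; -3.51 without day 4 replicate 1 and -5.32 without day 8 replicate 3) and Mettl7b (-3.49; -4.29 without day 8 replicate 3), which overlaps Itga7. Scara5, a ferritin receptor, fell, with 119.6 ± 18.0 CPM at day 4 against 13.4 ± 6.41 CPM at day 8 (log2 fold change -3.15, SE 0.47, adjusted p = 0.00205). Myo18b (-4.70), Sctr, the secretin receptor (-3.21), Fam83a (-3.11) and Clca3a1 (-4.49; -3.56 without day 4 replicate 2) were in this set, as were Smoc2, a matricellular protein (-3.31; -4.73 without day 8 replicate 3; lost without replicate 1 of day 8 (adjusted p = 0.0554)), and Retnla, a resistin-like hormone (-3.58; -4.81 without day 8 replicate 3; lost without replicate 2 of day 8 (adjusted p = 0.0553)).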

How the data were processed

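RNA was measured in 9 libraries, 3 each of day 0, day 4 and day 8, prepared with a stranded kit for total RNA from lysate supernatant, per the labels' protocols, so nuclear transcripts can be under-represented. Per the file header, the authors' deposited values are counts for each Ensembl gene, without normalization. HISAT2, featureCounts and genome build GRCm39 are named in the submitters' processing notes. For versions, annotation release and strand setting nothing is given in the sources used here. Values of overlapping, antisense or near-identical genes are therefore uncertain. The text does not flag every overlap. Further genes that overlap a tested neighbour include Slc7a10 (Lrp3, 82.4 CPM at day 8), Mest (Copg2, 33.6), Sult1a1 (Slx1b, 17.9), Pfkp (Pitrm1, 132.5) and Npc1 (Rmc1, 45.1).

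The analysis used edgeR 4.0.16 under R 4.3.3: filterByExpr (minimum count 10, minimum total 15), TMM scaling and 1 quasi-likelihood fit over all 9 libraries with 6 residual degrees of freedom (common dispersion 0.0515, biological coefficient of variation 22.7%). Day 8 was compared with day 4 by a two-sided F-test, Benjamini-Hochberg adjusted over all tested genes, with a threshold of 0.05. All p-values in the text are from edgeR. Log2 fold changes are those of the fit, and their SE is the log2 fold change divided by the square root of F. A call is said to be lost where the adjusted p reached 0.05 or more in a refit without the named library. The script was tested on simulated data. No 2 libraries of a day agreed within sampling noise (chi-square per degree of freedom 31.5 to 229 for day 4 and day 8), so none were merged as copies of 1 library. Alternatives were total counts in place of TMM, other filters on low counts, DESeq2 1.42.0, only the 6 libraries, the replicate number as a block, and leaving out each library.

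The members, the 48 gene lists and the tests were chosen with earlier results of these data known. Genes were named by this rule: 20 preset genes, the 4 called members that moved most in every list (1 CPM or more, libraries apart), members of lists with 5 or fewer calls in a direction, the 15 largest rises and falls at 5 CPM or more, and the 5 smallest p-values each way. Hspa5, Irf7, Creld2, Bcl2l1, Itgad, Itga7, Idh3b and the genes given without a call were added with their values seen. Promoters (250 bases before to 50 after a start site) are from RefSeq, GRCm38.p6, and overlaps from the RefSeq gene table. A fold against 0 counts is a bound against 3 counts over the group. Intervals cover counting error only. A few genes that the rule names are not reported here.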

Additional observations from a re-analysis of the deposited data

How the results depend on the processing

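With day 4 and day 8 alone in the fit, which leaves fewer libraries to estimate the spread, 1901 genes changed, 947 higher and 954 lower. When each library was left out in turn, the counts ranged from 1894 to 4185 for all changes, from 910 to 2049 for rises and from 929 to 2136 for falls; with a change of at least 2-fold they ranged from 1126 to 2200, with 613 to 1102 rises and 480 to 1098 falls. The counts without day 4 replicate 2 are in the text. Total counts in place of TMM gave 3102 changed genes (1583 higher, 1519 lower; median of all genes -0.0334), no filter 3489, a stricter filter of 1 CPM in 3 libraries 3205 and DESeq2 4254 (2052 higher, 2202 lower), all within 1.5 times for these counts over all genes. Counts of single lists moved more. With the 6 libraries alone, rises were 0 (9 with all libraries) in complex I, 2 (10) in mitochondrial ribosomal proteins, 13 (21) in interferon genes and 1 (6) in cAMP responsive genes, and falls were 12 (20) in cell cycle genes and 3 (9) in cytosolic ribosomal proteins. DESeq2 gave 18 falls (11) in the fibrillar matrix, 10 (6) in the basement membrane and 18 (9) in cytosolic ribosomal proteins, with 15 rises in complex I. No filter gave 19 falls in the fibrillar matrix and 18 rises in complex I, total counts 15 and the replicate block 3. The block gave 9 falls (5) in white fat genes. The other list counts that these settings moved by over 1.5 times were of 5 or fewer members. Replicate numbers were checked for pairing: deviations of same-numbered day 4 and day 8 libraries correlated at 0.0611, -0.126 and -0.00405, and not every library correlated best with its own number, so the numbers were not treated as pairs. A fit with the replicate number as a block gave 3105 changed genes, 1670 higher and 1435 lower, of which 2851 were among the 3285. Of 237 named genes, 209 were called, 75 of these lost the call under at least 1 alternative, and no called direction was reversed. Small fold changes of genes without a call could change sign, as for Pparg and Prdm16 without day 4 replicate 2. The call or its absence was kept in 3142 of 3550 gene and setting pairs. At a threshold of p under 0.05 with no adjustment, 5542 genes would pass. Fold changes of genes near the floor of 3 counts, 0.104 to 0.125 CPM, are limited by depth. The median of the endothelial markers was -1.43 as fitted and -0.948 with genes at 0 counts placed at their bounds.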

Other observations

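Lysosome and autophagy genes were among the lists with more rises than falls: of 29 tested, 9 rose and 2 fell, with a median log2 fold change of 0.243 (9 and 3, with 0.203, without day 4 replicate 2). Npc1, which exports cholesterol from lysosomes, was at 27.8, 33.2 and 31.1 CPM at day 4 and 85.5, 74.8 and 73.2 CPM at day 8 (log2 fold change 1.34, SE 0.12, adjusted p = 0.000221), above day 4 in all day 8 libraries. Gabarapl1, an autophagosome protein, had log2 fold change 1.04, SE 0.17, adjusted p = 0.00271. The falls were Ctsk, cathepsin K (-1.85, and -1.18 without day 4 replicate 2; lost without replicates 1 or 2 of day 8 (adjusted p between 0.0684 and 0.0716)), and Lamp2 (-0.54; lost without replicate 1 of day 0, replicate 3 of day 4 or replicates 2 or 3 of day 8 (adjusted p between 0.0509 and 0.0855)).

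In the peroxisome list 3 of 30 genes rose and 2 fell, with 2 and 7 without day 4 replicate 2. With all libraries both shares were below those of all genes tested (11.7% and 10.8%). Acaa1b, a thiolase, was at 58.9 ± 13.2 CPM at day 4 against 310.5 ± 81.2 CPM at day 8 (log2 fold change 2.40, SE 0.25, adjusted p = 0.000359) and Phyh, which starts the breakdown of branched fatty acids, at 69.7 ± 30.6 CPM at day 4 against 260.1 ± 45.6 CPM at day 8 (log2 fold change 1.90, SE 0.30, adjusted p = 0.00238). Ehhadh, a bifunctional enzyme of the same list, fell (log2 fold change -1.42, SE 0.18, adjusted p = 0.00101). Branched-chain amino acid breakdown had 1 rise of 23, the inhibitory kinase Bckdk (log2 fold change 0.94, SE 0.19, adjusted p = 0.00719), and 3 falls, the transaminases Bcat2 (log2 fold change -1.03, SE 0.21, adjusted p = 0.00815) and Bcat1 (-1.10; lost without any of the 3 day 0 libraries, replicate 2 of day 4 or any of the 3 day 8 libraries (adjusted p between 0.0538 and 0.126)) and Mccc2 (-0.74). The share of falls was not far from the 10.8% of all genes tested, and that of rises was below 11.7%. The count of rises was 4 without replicate 1 of day 4, and 4 fell without day 4 replicate 2. Of 10 tested genes of energy-dissipating cycles other than UCP1, Ckb, the creatine kinase of the creatine cycle, rose (34.9 ± 1.96 CPM at day 4 against 83.7 ± 13.8 CPM at day 8, log2 fold change 1.26, SE 0.15, adjusted p = 0.000519) and Gamt, which makes creatine, fell (log2 fold change -1.31, SE 0.20, adjusted p = 0.00231). Both shares of the 10 were near those of all genes tested. With single libraries left out the counts were 2 without replicate 1 of day 4 and 3 without replicate 2 of day 4 for rises and 2 without replicate 1 of day 8 for falls. The median of 20 tested mitochondrial chaperones and proteases was 0.0355. Of them 3 rose and 2 fell, shares near the 11.7% and 10.8% of all genes tested. Without day 4 replicate 2 these counts were 2 and 3, with a median of -0.11. Leaving out single libraries gave 1 to 6 rises and 0 to 3 falls. Among the rises was Lonp1, a protease of the matrix (log2 fold change 1.09, SE 0.24, adjusted p = 0.0119). The falls were Oma1 (-0.54) and Spg7. Oma1 was lost without any of the 3 day 0 libraries, replicates 1 or 3 of day 4 or any of the 3 day 8 libraries. Spg7 was lost without replicates 1 or 3 of day 4 or of day 8.

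Markers of 3 further cell types were near the limits of the data. Of 11 skeletal muscle markers 6 had no counts at day 4 and day 8 and 3 were tested, of which Des, desmin, rose (log2 fold change 1.99, SE 0.35, adjusted p = 0.00386), and Acta1 had 1.42 (2.21 without day 4 replicate 2; lost without replicates 1 or 3 of day 4 or any of the 3 day 8 libraries (adjusted p between 0.0533 and 0.0995)). Of 7 mesothelial markers 2 were tested and Wt1 was called (1.87; lost without any of the 3 day 0 libraries, any of the 3 day 4 libraries or any of the 3 day 8 libraries (adjusted p between 0.0565 and 0.143)). None of 5 tested Schwann cell markers passed.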
